A study of Mus musculus with 32 samples.

Results

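A set of 10 genes of transforming growth factor beta (TGF-beta) signalling were followed in primary mouse melanomas: the 3 ligand genes Tgfb1, Tgfb2 and Tgfb3, the activin gene Inhba, the latency gene Ltbp1, the receptor genes Tgfbr1, Tgfbr2 and Tgfbr3, the feedback inhibitor Smad7 and the target gene Tgfbi. They were chosen by symbol, through the Ensembl identifiers of the GENCODE annotation, and made up 10 of the 50600 genes measured. All 10 were detected and entered the tests.

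TGF-beta is secreted in a latent form, bound by its own propeptide and, through it, by latent TGF-beta binding proteins in the matrix. Once released, it brings together the type II and type I receptors, whose kinases activate SMAD transcription factors. In melanocytes the pathway restrains growth and differentiation, and in melanoma and its stroma it is known for roles in invasion, matrix deposition and suppression of immune cells.

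The study sequenced polyadenylated RNA of 32 primary melanomas to compare tumours with and without E-cadherin, the product of Cdh1, in both sexes. All mice carried Tyr::NrasQ61K, an oncogene driven by the melanocyte promoter of tyrosinase, had lost 1 copy of the tumour suppressor gene Cdkn2a (Cdkn2a-/+) and were Cdh1F/F. Ecad tumours were labelled °/° at the remaining locus. For ΔEcad tumours the labels have Tyr::NRAS/° there, where the study's methods have the Cre transgene Tyr::CreA/°, which deletes Cdh1 in melanocytes and leaves it in the other cells of the tumour. The background was C57BL/6J, tumours were collected at about 1 cm3, and ages were not given. Each genotype and sex gave a group of 8 tumours. The labels do not say whether tumours came from separate mice, so p-values measure the spread between these tumours only.

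Total counts ranged from 24036333 to 63923086 per tumour. Cdh1 ranged from 25.0 to 282 TPM (transcript abundance, a level scaled for gene length and library size) in Ecad males and from 0.79 to 65.2 TPM in ΔEcad males, and the female groups overlapped almost fully (2.16 to 151 and 0.17 to 143 TPM), so directions in females rest on the labels. A set of 3 libraries stood apart. In the library labelled ΔEcad male 2, Xist reached 6.41 TPM and the Y-linked gene Eif2s3y had 0 counts, where the other males had at most 0.2 TPM and at least 152 counts. ΔEcad male 7 had a summed level of 7 melanocytic markers of 31.5 TPM, against at least 5773 TPM in every other tumour, although it is labelled like the other melanomas. ΔEcad female 3 had a summed level of 6 endothelial markers of 0.77 TPM and of 6 macrophage markers of 11.7 TPM, and all 5 T cell markers were at 0. Fold changes that moved most when 1 of these libraries was left out are given with and without it. In bulk tissue, fewer cells of a type and less RNA per cell cannot be told apart.

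Promoter sequences from RefSeq (GRCm38.p6) are shown for 4 genes on which the description of levels turns: Tgfb1 as the most abundant ligand gene, Tgfb2 as the least abundant of the 3, Inhba as the gene with the widest range, and Ltbp1 as the gene with 1 extreme tumour. Each line holds the 250 bases before the annotated start, read 5′ to 3′ on the strand of the gene. Capitals mark matches, on either strand, to the motifs searched: TGANTCA (AP-1), TGACGTCA (the cyclic AMP response element, CRE), GTCTAGAC (the palindromic SMAD box), CAGACA (a short SMAD element), CATTCCA (TEAD), CATGTG (bound by MITF) and TATAAA (the TATA box). The windows are chr7:25686752-25687001 on the plus strand for Tgfb1, chr1:186705990-186706239 on the minus strand for Tgfb2, chr13:16011601-16011850 on the plus strand for Inhba and chr17:75005279-75005528 on the plus strand for the first of 2 Ltbp1 starts.
Tgfb1: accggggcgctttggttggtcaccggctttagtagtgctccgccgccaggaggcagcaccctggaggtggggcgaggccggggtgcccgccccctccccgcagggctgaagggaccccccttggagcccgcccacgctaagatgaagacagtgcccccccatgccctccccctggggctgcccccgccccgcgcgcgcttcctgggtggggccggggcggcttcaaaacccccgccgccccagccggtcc
Tgfb2: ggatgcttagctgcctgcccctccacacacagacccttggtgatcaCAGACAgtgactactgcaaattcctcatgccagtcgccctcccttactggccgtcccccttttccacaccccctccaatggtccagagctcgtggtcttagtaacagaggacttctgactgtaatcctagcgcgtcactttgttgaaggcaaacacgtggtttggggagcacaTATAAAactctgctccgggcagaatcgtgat
Inhba: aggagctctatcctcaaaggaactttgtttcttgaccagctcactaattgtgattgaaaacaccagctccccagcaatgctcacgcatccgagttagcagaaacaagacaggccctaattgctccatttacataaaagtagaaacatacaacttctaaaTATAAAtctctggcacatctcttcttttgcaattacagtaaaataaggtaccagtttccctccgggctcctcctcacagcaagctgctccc
Ltbp1: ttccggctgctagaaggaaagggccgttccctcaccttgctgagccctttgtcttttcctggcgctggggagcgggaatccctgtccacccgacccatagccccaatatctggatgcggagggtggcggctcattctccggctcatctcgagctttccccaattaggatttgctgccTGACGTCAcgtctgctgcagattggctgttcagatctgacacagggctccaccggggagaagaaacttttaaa
The Tgfb1 window was 75.2% G and C and matched none of the motifs, against a median of 52.4% over the 32851 promoters of that table. The Tgfb2 window, at 53.6%, held TATAAA 31 bases before the start and CAGACA 204 bases before it. TATAAA occurred in 12.4% of all promoters and CAGACA in 17.1%. Inhba, at 43.2%, had TATAAA 91 bases before its start. The Ltbp1 window, at 56.8%, held TGACGTCA 73 bases before the start, a match found in 1.55% of all promoters. These matches describe the letters in each window only. The other motifs occurred in 6.75% (AP-1), 0.167% (palindromic SMAD box), 3.69% (TEAD) and 12.3% (CATGTG) of promoters and in none of the 4 windows. CATGTG was the only MITF site searched, so other sites that MITF may bind were not looked for.

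The 10 genes spanned levels from a median of 134 TPM for Tgfbi to 0.81 TPM for Inhba over the 32 tumours. In order of their medians, Tgfbr2 was at 77.4, Tgfb1 at 73.4, Tgfbr3 at 22.4, Tgfb3 at 17.4, Tgfbr1 at 13.9, Ltbp1 at 11.2, Smad7 at 9.39 and Tgfb2 at 5.78 TPM. Tumour by tumour, 2 steps in this order were nearly constant: Tgfb1 exceeded Tgfbr3 in 30 of 32 tumours, and Tgfb2 exceeded Inhba in 29. The neighbours Tgfbr2 and Tgfb1 were not separated, with Tgfbr2 higher in 15 of 32 tumours. The remaining 6 steps held in 19 to 24 tumours.

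**Figure D1:**
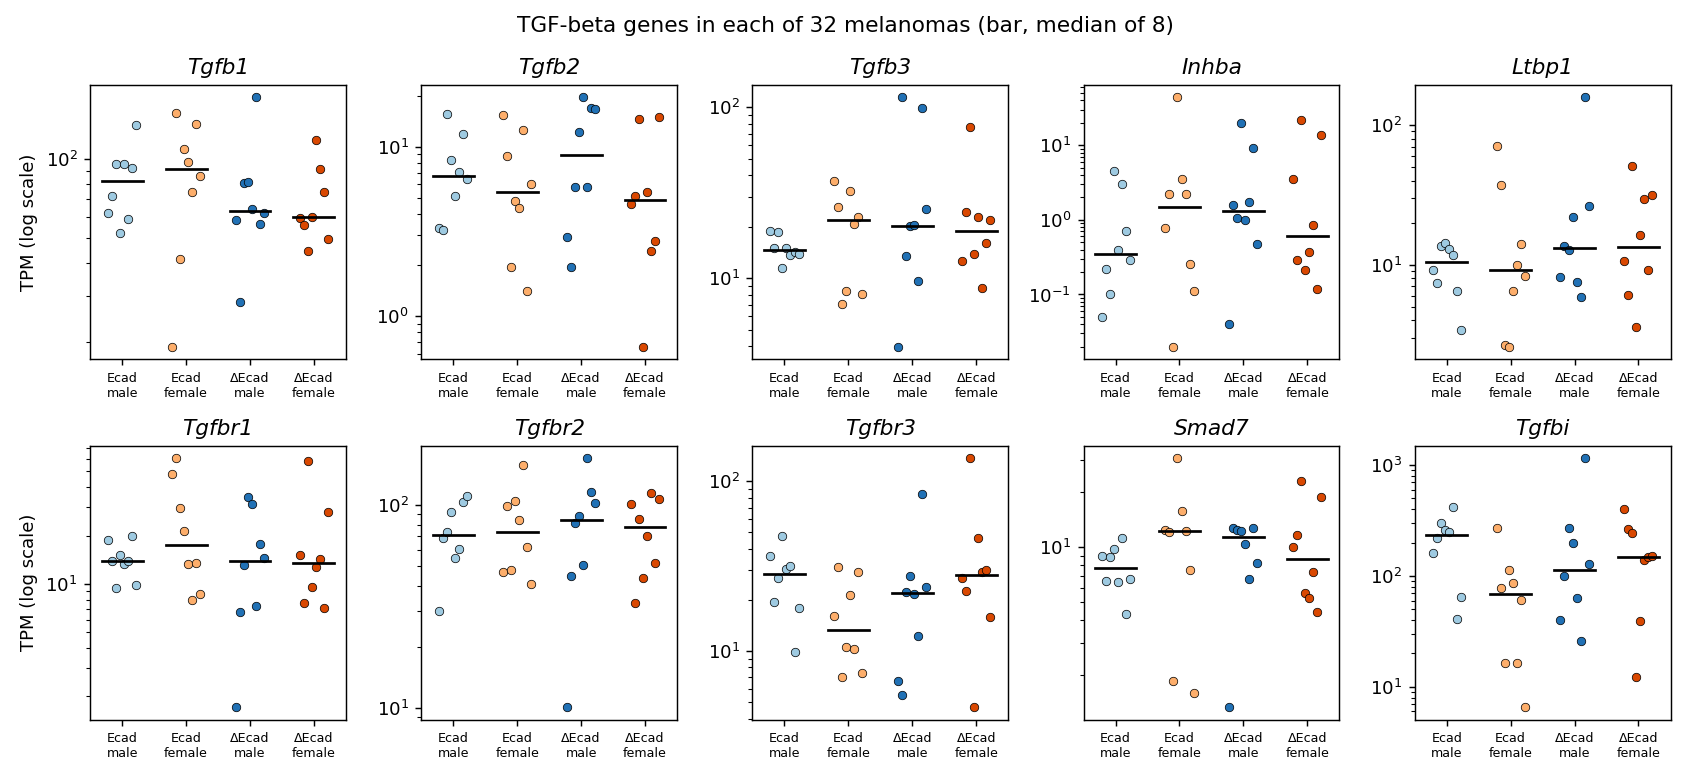
Level of each gene in TPM (log axis) in every tumour of the 4 groups of 8, with points in order of tumour number and a bar at the group median. The groups overlap for all 10 genes, Tgfb1 and Tgfbr2 vary least, and single tumours lie far above the rest for Inhba, Ltbp1, Tgfb3, Tgfbr3 and Tgfbi.

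Tgfb1 (chromosome 7, 25687002 to 25705077, GRCm38) encodes the ligand isoform that is abundant in most adult tissues and immune cells. Its lowest, median and highest levels were 52.2, 82.3 and 134 TPM in Ecad males, and 19.3, 91.3 and 149 TPM in Ecad females. They were 28.6, 63.3 and 171 TPM in ΔEcad males, and 44.4, 59.9 and 118 TPM in ΔEcad females. Levels overlapped widely, with the lowest tumour in Ecad females (tumour 1) and the highest in ΔEcad males (tumour 6).

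Tgfb2 (chromosome 1, 186622792 to 186705989) encodes an isoform prominent in development and in neural crest derivatives. Group means were 10.2 ± 6.97 TPM in ΔEcad and 7.63 ± 4.29 TPM in Ecad males, and 6.30 ± 5.42 TPM in ΔEcad and 6.92 ± 5.01 TPM in Ecad females (SD, n = 8 for every group). Single tumours ran from 0.66 TPM in ΔEcad female 4 to 19.6 TPM in ΔEcad male 5, and the spread within each group exceeded the distance between group means.

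Tgfb3 (chromosome 12, 86056745 to 86079041) encodes the isoform known from palate closure and wound repair. In Ecad males it stayed within a narrow range, with lowest, median and highest values of 11.4, 14.6 and 18.8 TPM. The same values were 3.98, 20.3 and 114 TPM in ΔEcad males, 7.06, 21.8 and 37.2 TPM in Ecad females and 8.74, 19.0 and 76.4 TPM in their ΔEcad counterparts. A group of 3 tumours stood far above the others, the libraries labelled ΔEcad male 2 (114 TPM) and ΔEcad male 7 (99.3 TPM) and ΔEcad female 3 (76.4 TPM), and these are the 3 libraries described above. Tgfb3 overlaps Ttll5 on the opposite strand, which had up to 2779 counts, and no source used here says that reads were counted by strand, so its level is uncertain.

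As a share of the summed TPM of the 3 ligand genes, Tgfb1 took a median of 77.8% and was the largest in 28 of 32 tumours. In the other 4 Tgfb3 was the largest, with 51.7% in Ecad female 1, 78.9% in the library labelled ΔEcad male 2, 57.5% in ΔEcad male 7 and 56.4% in ΔEcad female 3. Tgfb2 was the largest in none and took between 0.877% and 21.5%. The summed ligand level itself was less variable, with a median of 104.3 TPM and a range of 50.5 to 186 TPM. In Ecad female 1 it was 72.0 TPM and in the other 3 of these tumours 135 to 173 TPM. Ecad female 1 had the lowest Tgfb1 level of all tumours (19.3 TPM) and the highest Tgfb3 level of its group (37.2 TPM). Tgfb1 was at 28.6 TPM in the library labelled ΔEcad male 2, 56.5 TPM in ΔEcad male 7 and 44.4 TPM in ΔEcad female 3.

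**Figure D2:**
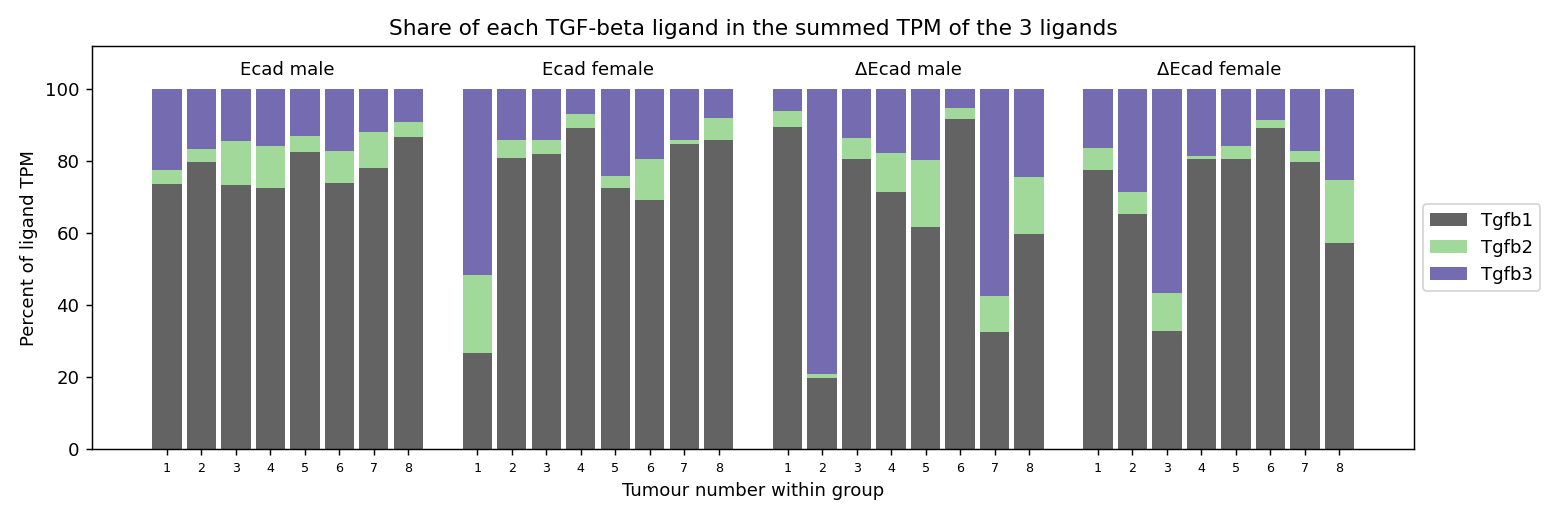
Stacked bars give the percentage of summed ligand TPM from Tgfb1, Tgfb2 and Tgfb3 in each of the 32 tumours, by group and tumour number. Tgfb1 fills most of the bar in 28 tumours, and Tgfb3 in Ecad female 1, ΔEcad males 2 and 7 and ΔEcad female 3.

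Mean Tgfb1 shares were 63.4% ± 26.0 in ΔEcad and 77.6% ± 5.13 in Ecad males, and 70.4% ± 18.1 in ΔEcad and 74.0% ± 20.2 in Ecad females (SD, n = 8 for every group). None of the 4 comparisons passed an exact permutation test (two-sided, all splits of 8 against 8). ΔEcad minus Ecad was -14.2 percentage points in males (p = 0.171, adjusted p = 0.683) and -3.56 in females (p = 0.694, adjusted p = 0.828), by the same exact test. Female minus male was -3.64 points in Ecad and 7.01 in ΔEcad tumours (exact p = 0.828 and 0.539, adjusted p = 0.828 for both). Without the 3 libraries that stood apart, the male difference of genotype was -0.812 points and the female one 1.81 points.

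Inhba (chromosome 13, 16011851 to 16031621) encodes the beta A subunit of activin and inhibin, and activin A signals through SMADs shared with TGF-beta. It had the widest range of the 10 genes, from 1 to 769 counts, with 6 of 32 tumours at or under 3 counts. Lowest, median and highest levels were 0.05, 0.345 and 4.55 TPM in Ecad males, and 0.02, 1.49 and 43.9 TPM in Ecad females. In ΔEcad males they were 0.04, 1.32 and 20.01 TPM, and in ΔEcad females 0.12, 0.61 and 21.7 TPM. Every group held tumours near 0, and the high values belonged to single tumours: Ecad female 4, ΔEcad female 3, ΔEcad male 4 and ΔEcad female 8.

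Ltbp1 (chromosome 17, 75005568 to 75392512) encodes the binding protein that tethers latent TGF-beta to the matrix. In ΔEcad males its lowest, median and highest levels were 5.93, 13.2 and 158 TPM, and in Ecad males 3.43, 10.5 and 14.2 TPM. The values were 2.60, 9.14 and 70.3 TPM in Ecad females and 3.57, 13.5 and 50.9 TPM in ΔEcad females. ΔEcad male 7, the tumour with the lowest melanocytic markers, held the highest value, and without it the ΔEcad male mean of 31.7 ± 51.4 TPM (SD, n = 8) became 13.7 ± 7.75 TPM (SD, n = 7), against 9.89 ± 3.89 TPM (SD, n = 8) in Ecad males.

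Of the receptors, Tgfbr2 (chromosome 9, 116084293 to 116175360), the ligand-binding type II kinase, had group means of 82.9 ± 49.2 TPM in ΔEcad males, 74.4 ± 26.9 TPM in Ecad males, 80.3 ± 39.6 TPM in Ecad females and 76.0 ± 31.0 TPM in those with ΔEcad (SD, n = 8 for every group). Tgfbr1 (chromosome 4, 47353222 to 47414931), the type I kinase that phosphorylates the SMADs, had means of 15.9 ± 11.7, 14.2 ± 3.67, 25.4 ± 19.5 and 19.0 ± 17.0 TPM in the same order (SD, n = 8 for every group). ΔEcad male 1 had the lowest level of both, with 10.05 TPM of Tgfbr2 and 1.71 TPM of Tgfbr1. For Tgfbr2 the group means lay within 1 SD of each other, and for Tgfbr1 all groups overlapped.

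Tgfbr3 (chromosome 5, 107106570 to 107289629) encodes betaglycan, the co-receptor that presents TGF-beta2 to the type II receptor and also binds inhibin. Its group median was lowest in Ecad females, where the lowest, median and highest levels were 7.00, 13.3 and 31.1 TPM, against 4.66, 28.0 and 137 TPM in ΔEcad females. Males had 9.88, 28.6 and 47.8 TPM in Ecad and 5.50, 21.98 and 83.8 TPM in ΔEcad tumours. Of the ΔEcad females 7 of 8 lay above the Ecad female median, while 2 lay above the highest Ecad female and 1 below the lowest. ΔEcad female 3 held the highest value, and without it the ΔEcad female mean of 39.1 ± 41.4 TPM (SD, n = 8) became 25.1 ± 13.01 TPM (SD, n = 7), against 16.6 ± 9.59 TPM (SD, n = 8) in Ecad females.

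Smad7, on chromosome 18, encodes the inhibitory SMAD that is induced by TGF-beta and activin and blocks the type I receptors. Its lowest, median and highest levels were 4.31, 7.75 and 11.2 TPM in Ecad males, and 1.61, 12.2 and 30.6 TPM in Ecad females. They were 1.34, 11.3 and 12.8 TPM in ΔEcad males, and 4.45, 8.65 and 22.9 TPM in ΔEcad females. The groups overlapped throughout, and the extremes were ΔEcad male 1 at the bottom and Ecad female 4, the tumour with the most Inhba, at the top.

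Tgfbi (chromosome 13, 56609523 to 56639562) encodes a secreted matrix protein named for its induction by TGF-beta. Ecad females had lowest, median and highest levels of 6.54, 69.2 and 273 TPM, against 41.3, 236 and 418 TPM in Ecad males. ΔEcad males had 25.9, 114 and 1156 TPM, and ΔEcad females 12.2, 150 and 404 TPM. Among Ecad females 7 of 8 lay below the Ecad male median and 3 below the lowest Ecad male. The highest value again belonged to ΔEcad male 7, and without it the ΔEcad male mean of 248 ± 376 TPM (SD, n = 8) became 118 ± 89.2 TPM (SD, n = 7).

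Genotypes and sexes were compared on the counts of all genes, to find whether loss of E-cadherin or sex changed these genes. None of the 10 passed in any comparison. A call needed an adjusted p under 0.05 (Benjamini-Hochberg, over 17717 tested genes) and an absolute log2 fold change over 1 in the quasi-likelihood test of edgeR, which is two-sided. DESeq2 and limma voom also called none of the 10. Of all 17717 genes, limma voom called 1 for genotype in females, 0 in males and 92 between the sexes of Ecad tumours. DESeq2 called 1281, 21 and 1023 in the same order. The lowest adjusted p of any of the 10 under any alternative was 0.0521, for Tgfbi between the sexes of Ecad tumours. Confidence intervals remained wide, from about 0.7 on the log2 scale to either side of the estimate for Tgfb1 to over 2 for Inhba.

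**Figure D3:**
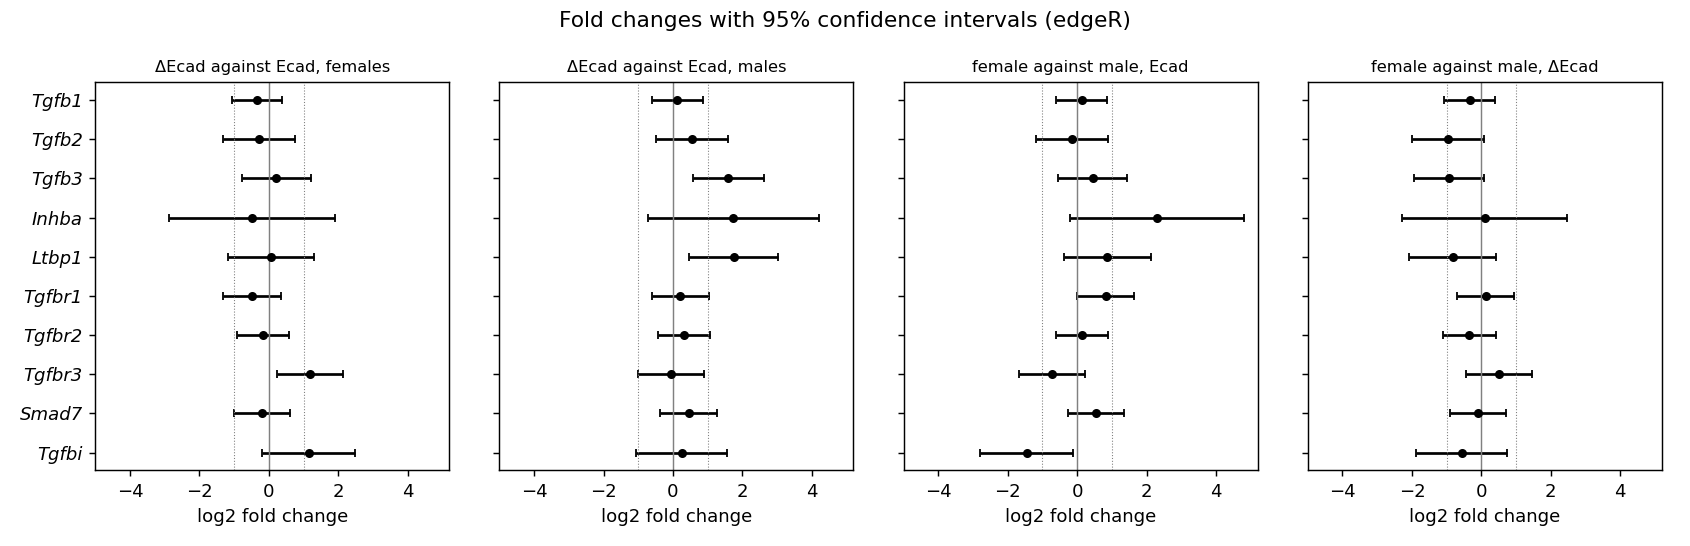
Points give the log2 fold change of each gene in 4 comparisons and bars the 95% confidence interval from edgeR, with a solid line at 0 and dotted lines at 1 and -1. Intervals exclude 0 only for Tgfbr3 in females, for Tgfb3 and Ltbp1 in males and for Tgfbi between the sexes of Ecad tumours, before adjustment over all genes.

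In females, ΔEcad against Ecad, 0 of the 10 genes were called, where 1.2% of all tested genes were. The nearest was Tgfbr3, with 1 of the 10 at an unadjusted p under 0.05 (15.3% of all genes were). It differed by 1.19 on the log2 scale (SE 0.473, edgeR adjusted p = 0.189), and by 0.67 without ΔEcad female 3 (adjusted p = 0.481). The 10 fold changes had a median of -0.18, against -0.02 over all genes, with 4 above 0 and 6 below. Tgfb1, Tgfb2, Inhba, Tgfbr1, Tgfbr2 and Smad7 lay between -0.48 and -0.17.

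Group medians of markers of other cell types differed by genotype in females, which was not tested. Mean scores, each the mean log2 CPM (counts scaled to library size) of a marker list, did not all follow. The macrophage score was 4.85 ± 3.06 in ΔEcad and 5.01 ± 1.47 in Ecad females (SD, n = 8 for both). The endothelial score was 3.89 ± 2.74 and 3.93 ± 0.638, while fibroblast, T cell and keratinocyte scores were higher in ΔEcad. ΔEcad female 3 had the lowest macrophage and endothelial scores of its group, at -2.23 and -2.73, and lowered both means. Group medians of the macrophage score were 6.00 in ΔEcad and 4.80 in Ecad females, and of the endothelial score 4.79 and 3.97. With fibroblast and macrophage scores in the model the Tgfbr3 difference was 0.78 (edgeR adjusted p = 0.789). It was 1.22 (adjusted p = 0.413) with keratinocyte and melanocytic scores. Both models kept ΔEcad female 3, which had the highest Tgfbr3 level and the lowest macrophage score. Over all tumours r of Tgfbr3 with the macrophage score was 0.138, and without that tumour 0.825. The part of macrophages in the Tgfbr3 difference was not tested without it. Group medians of 6 of 6 macrophage, 5 of 5 T cell, 5 of 5 fibroblast, 6 of 6 endothelial and 6 of 6 keratinocyte markers were higher in the ΔEcad group, and those of 7 of 7 melanocytic markers were lower. Summed macrophage markers ranged from 168 to 3968 TPM (median 519) in Ecad and from 11.7 to 3301 TPM (median 1133) in ΔEcad females, and 3 of the 6 were at 0 in some ΔEcad female. Summed T cell markers ranged from 0.69 to 34.9 TPM in Ecad and from 0 to 24.5 TPM in ΔEcad females.

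In males 9 of the 10 fold changes of ΔEcad against Ecad were above 0, with a median of 0.38 against 0.11 over all genes, and again 0 of 10 were called, where 0% of all genes were. In all, 2 had an unadjusted p under 0.05 (10.2% of all genes did). Tgfb3 differed by 1.59 on the log2 scale (SE 0.502, edgeR adjusted p = 0.387), and 5 of 8 ΔEcad males lay above the highest Ecad male while 2 lay below the lowest. Without the libraries labelled ΔEcad male 2 and ΔEcad male 7 the ΔEcad male mean was 15.5 ± 7.91 TPM (SD, n = 6), against 15.1 ± 2.55 TPM (SD, n = 8) in Ecad males, and without all 3 libraries that stood apart the log2 fold change was 0.27 (adjusted p = 0.822). Leaving out the library labelled ΔEcad male 2 alone gave 0.91 (adjusted p = 0.648). Group medians of 6 of 6 keratinocyte and 5 of 5 neutrophil markers were lower in ΔEcad than in Ecad males. Summed keratinocyte markers ranged from 1.26 to 21260 TPM (median 3582) in Ecad males and from 1.52 to 13980 TPM (median 433) in ΔEcad males, and summed neutrophil markers from 80.5 to 5266 and from 26.3 to 3576 TPM. With keratinocyte and melanocytic scores in the model Tgfb3 differed by 1.30 (adjusted p = 0.369), and the part of the neutrophil markers was not tested.

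Ltbp1 differed by 1.76 on the log2 scale in males (SE 0.629, edgeR adjusted p = 0.426), with 3 of 8 ΔEcad males above the highest Ecad male. Leaving out ΔEcad male 7 gave 0.84 (adjusted p = 0.562), and adding keratinocyte and melanocytic scores to the model gave 0.59 (adjusted p = 0.768). In ΔEcad male 7 the melanocytic score, a mean log2 CPM (counts scaled to library size), was 0.78, and in the other ΔEcad males at least 9.87. Its fibroblast score was 8.17, the highest of the 32 tumours. With fibroblast and macrophage scores in the model instead, Ltbp1 differed by 1.475 (edgeR adjusted p = 0.332). The part of these markers in the Ltbp1 value was not tested beyond these 2 models.

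Between the sexes of Ecad tumours 0 of the 10 genes were called, where 0.0508% of all genes were. Tgfbi alone had an unadjusted p under 0.05, as did 16% of all genes, and the log2 value for female against male was -1.46 (SE 0.657, edgeR adjusted p = 0.265). With fibroblast and macrophage scores in the model it was -0.41 (adjusted p = 0.908), and with keratinocyte and melanocytic scores -0.73 (adjusted p = 0.985). All 5 fibroblast markers had lower medians in Ecad females than in Ecad males, with summed levels from 17.4 to 214 TPM against 31.7 to 516 TPM, and none was at 0. Keratinocyte markers did likewise, 6 of 6, with summed medians of 1.33 and 3582 TPM. So did 6 of 6 macrophage, 5 of 5 T cell, 6 of 6 endothelial, 5 of 5 mural cell and 4 of 5 neutrophil markers. Of the melanocytic markers, 5 of 7 had higher medians in Ecad females. The part of any of these cell types was not tested beyond the models above. Inhba (2.30, SE 1.23, edgeR adjusted p = 0.362) and Tgfbr1 (0.82, SE 0.409, edgeR adjusted p = 0.324) had values above 0 that did not pass.

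Between the sexes of ΔEcad tumours 0 of 10 were called, where 0.0395% of all genes were, and none had an unadjusted p under 0.05 (8.81% of all genes did). Fold changes, female against male, ran from -0.97 for Tgfb2 to 0.51 for Tgfbr3, with 7 of 10 below 0. The interaction of genotype and sex, which tests whether the genotype difference itself differs between the sexes, called 0 of 10 and 0% of all genes. None of the 10 had an unadjusted p under 0.05 there, as 17.7% of all genes did. The smallest adjusted p was 0.303, for Tgfb3, with -1.37 (SE 0.697). The library labelled ΔEcad male 2, with Xist present and 0 counts of Eif2s3y, counts as male in both comparisons. It held the highest Tgfb3 level (114 TPM), and without it the male genotype value of Tgfb3 was 0.91 (edgeR adjusted p = 0.648). Values of these 2 comparisons without that library are not given here.

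Averaged over both sexes, ΔEcad against Ecad called 0 of 10, where 0.0113% of all genes were called. Tgfb3 (0.90, SE 0.350, edgeR adjusted p = 0.424) and Ltbp1 (0.91, SE 0.436, edgeR adjusted p = 0.498) had an unadjusted p under 0.05, as did 9.88% of all genes. Without the 3 libraries that stood apart they were 0.03 and 0.28. These averages share all their tumours with the comparisons within sex and are no separate evidence.

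A further 50 genes of the pathway were read in the same model: 11 of latency and activation, 6 on the activin side, 6 receptors, 4 SMADs, 10 negative regulators and 13 targets. All 50 were tested. Only Acta2, the smooth muscle actin gene and a TGF-beta target in myofibroblasts, was called, and only in the female genotype comparison, where 1 of 50 compares with 1.2% of all genes. No pathway gene was called by edgeR in the other 5 comparisons.

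Acta2 in females was higher with the ΔEcad genotype, by 3.06 on the log2 scale (SE 0.80, edgeR adjusted p = 0.0497). Its levels were 8.46, 38.6 and 231 TPM (lowest, median and highest) in Ecad females and 32.2, 105 and 3978 TPM in ΔEcad females, and 1 ΔEcad female lay above the highest Ecad female. ΔEcad female 3 held the 3978 TPM, and without it the ΔEcad female mean was 99.4 ± 46.8 TPM (SD, n = 7), against 63.4 ± 73.1 TPM (SD, n = 8) in Ecad females. The log2 fold change then was 0.68 (adjusted p = 0.542), so the call rests on that tumour, and it held in only 12 of the 32 fits that left out 1 tumour. DESeq2 did not call Acta2 in females and called 6 other genes of the list, where it called 1281 of all 17717 tested genes. Tagln, another smooth muscle target, followed it with 2.53 (SE 0.716, edgeR adjusted p = 0.0572) and 1526 TPM in the same tumour, and was at 0.73 (adjusted p = 0.504) without it. Tagln overlaps Pcsk7 and is uncertain. Summed levels of 5 mural cell markers ranged from 79.3 to 766 TPM in ΔEcad and from 11.02 to 502 TPM in Ecad females, with 5 of 5 medians higher in ΔEcad, and their part was not tested.

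In females 15 of the 50 pathway genes had an unadjusted p under 0.05, where 15.3% of all genes did. Values were above 0 for 14 of these pathway genes. That direction was not particular to the list: of the 213 genes called among all tested genes, 205 were higher in ΔEcad and 8 lower. The third by p was Acvr1b, a type I activin receptor, with 1.04 (SE 0.303, edgeR adjusted p = 0.0633) and female means of 37.0 ± 20.3 TPM with ΔEcad, against 17.2 ± 6.73 TPM with Ecad (SD, n = 8 for both). In males 6 did so, where 10.2% of all genes did, led by Nedd4l, a ubiquitin ligase that limits SMAD signalling (-1.46, adjusted p = 0.389), Bambi, a decoy receptor (1.12, adjusted p = 0.424), and Fbn1, the fibrillin that anchors latent complexes (1.54, adjusted p = 0.446). Each of these 3 values rests in large part on 1 tumour. Nedd4l reached 279 TPM in Ecad male 7 and was at -0.50 (adjusted p = 0.575) without it, Bambi reached 34.2 TPM in the library labelled ΔEcad male 2 and was at 0.57 (adjusted p = 0.690) without it, and Fbn1 reached 153 TPM in ΔEcad male 7 and was at 0.77 (adjusted p = 0.632) without it. The median fold change of the 50 was 0.07 in females and 0.22 in males, against -0.02 and 0.11 over all genes.

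Between the sexes of Ecad tumours 9 of the 50 had an unadjusted p under 0.05 (16% of all genes did), and the smallest p belonged to Itgb6, an integrin subunit of epithelia that activates latent TGF-beta (-4.18, edgeR adjusted p = 0.123). Itgb6 was at most 0.28 TPM in Ecad females and reached 5.32 TPM in Ecad males. Skil, a SMAD repressor (1.09, adjusted p = 0.164), and Ltbp4, a latency protein (-1.48, adjusted p = 0.167), came next. In ΔEcad tumours 8 of the 50 did so, where 8.81% of all genes did, led by Acta2 (2.52, adjusted p = 0.484), Mstn, the myostatin gene of muscle (4.23, adjusted p = 0.500), and Acvr1b (0.78, adjusted p = 0.503). Without ΔEcad female 3 the Acta2 value was 0.15 (adjusted p = 0.954).

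For the interaction, 10 of the 50 genes had an unadjusted p under 0.05, where 17.7% of all genes did. Mstn (7.86, SE 2.21, edgeR adjusted p = 0.0607), Itgb6 (6.39, SE 1.81, edgeR adjusted p = 0.0610) and Acvr1b (1.40, SE 0.426, edgeR adjusted p = 0.0738) lay just outside the threshold. Mstn and Itgb6 are low genes, with group medians of at most 1.57 and 0.80 TPM. The mean over both sexes likewise had 10, where 9.88% of all genes did, led by Fbn1 (1.55, adjusted p = 0.247), Tagln (1.61, adjusted p = 0.271) and Lrrc32, which docks latent TGF-beta on cell surfaces (0.99, adjusted p = 0.314). ΔEcad female 3 held the highest level of each among ΔEcad females, with 201 TPM of Fbn1 and 106 TPM of Lrrc32 beside the Tagln level above. Without the 3 libraries that stood apart the values were 0.56 (adjusted p = 0.683) for Fbn1, 0.44 (adjusted p = 0.730) for Tagln and 0.69 (adjusted p = 0.564) for Lrrc32.

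Since tumours of each group varied widely, relations among the genes were examined over the 32 tumours on log2 CPM. Of 45 gene pairs, 4 passed for Pearson's r and 3 for Spearman's rho, by permutation with adjustment over these and 80 relations with marker scores, and all were positive. The clearest was Inhba with Smad7, with r = 0.743 and rho = 0.758 (permutation p = 1e-05 for both, the smallest that 100000 resamples can give, adjusted p = 0.00125). It was 0.668 without the 2 tumours farthest from the Inhba median, 0.736 within groups and 0.722 without the 3 libraries that stood apart. Passing also held with each tumour left out in turn (r from 0.701 to 0.772).

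Tgfbr3 and Tgfbi also varied together, with r = 0.605 (permutation adjusted p = 0.01) and rho = 0.565 (adjusted p = 0.0146), and r was 0.569 without the 2 farthest tumours and 0.562 within groups. Its call for rho was lost without ΔEcad female 4. Tgfb3 with Ltbp1 had r = 0.570 (permutation adjusted p = 0.0221) but rho = 0.497 (adjusted p = 0.0525), r = 0.509 without the 2 farthest tumours and 0.520 within groups. Without ΔEcad male 7 this r was 0.463 and no longer passed. Ltbp1 with Tgfbr3 had r = 0.554 (permutation adjusted p = 0.0221), rho = 0.464 (adjusted p = 0.0695), r = 0.431 without the 2 farthest tumours and 0.609 within groups, and lost its call without ΔEcad male 7 or without ΔEcad female 4. Inhba with Tgfbr2 passed for rho alone, at 0.535 (permutation adjusted p = 0.0258), with r = 0.468 (adjusted p = 0.0861), and lost that call in 5 of the 32 fits that left out 1 tumour (Ecad male 1, Ecad male 2, Ecad female 8, ΔEcad male 1 or ΔEcad female 4). The 3 ligand genes were not related to each other by this threshold.

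**Figure D4:**
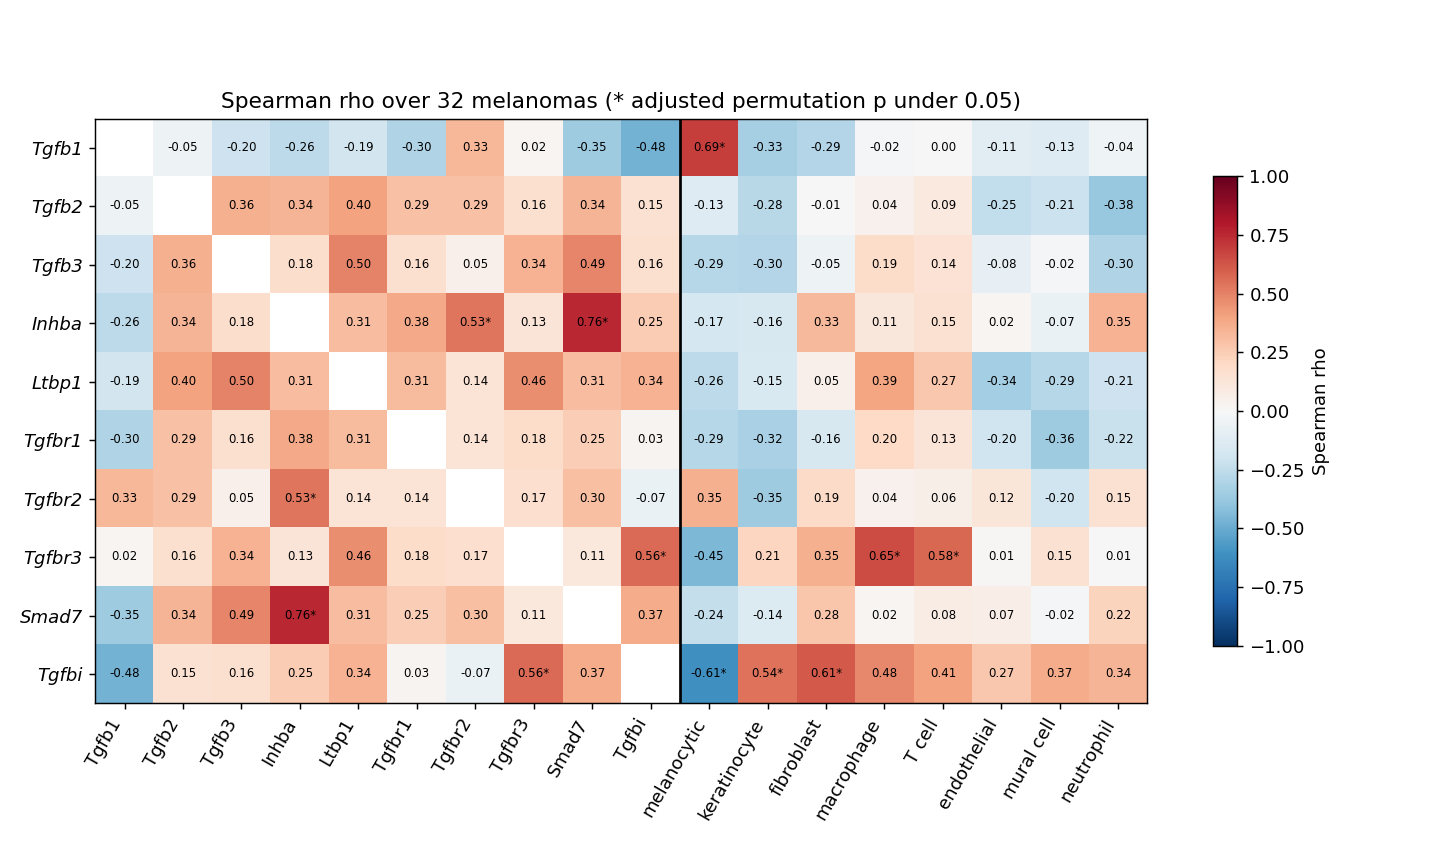
Spearman's rho over 32 tumours between the 10 genes (left block) and between each gene and the mean log2 CPM of 8 lists of cell type markers (right block), with an asterisk where the adjusted permutation p is under 0.05. Inhba with Smad7 at 0.76 is the highest gene pair, and Tgfb1 with the melanocytic score at 0.69 the highest pair with a marker score.

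Relations with cell type markers differed between the genes. Tgfbi followed the fibroblast score, with r = 0.691 (permutation adjusted p = 0.00125) and rho = 0.611 (adjusted p = 0.008), r = 0.586 without the 2 farthest tumours and 0.607 within groups. It ran against the melanocytic score, with r = -0.551 (permutation adjusted p = 0.0221) and rho = -0.611 (adjusted p = 0.008), r = -0.548 without the 2 farthest tumours and -0.561 within groups, and the call for r was lost without ΔEcad male 7 or without ΔEcad female 4. With the keratinocyte score Tgfbi passed for rho alone (0.543, permutation adjusted p = 0.0236, with r = 0.413 and 0.251 within groups), and lost that call in 4 of the 32 fits that left out 1 tumour (Ecad male 6, Ecad female 6, ΔEcad female 1 or ΔEcad female 4).

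Tgfb1 followed the melanocytic score by rank, with rho = 0.690 (permutation adjusted p = 0.00125), while r was 0.370 (adjusted p = 0.216) and 0.381 within groups. ΔEcad male 7 lay far to the left in that relation, and r was 0.535 without it. Tgfbr3 followed the macrophage score by rank, with rho = 0.649 (permutation adjusted p = 0.00417), and the T cell score, with rho = 0.578 (adjusted p = 0.0146). Pearson's r was 0.138 and 0.369 for these (adjusted p = 0.601 and 0.213) and 0.825 and 0.742 without ΔEcad female 3, which had the highest Tgfbr3 level and almost no macrophage or T cell markers. Within groups r was 0.132 and 0.348, all 32 tumours included. With all 32 tumours, Smad7, Inhba, Ltbp1, Tgfb2, Tgfb3, Tgfbr1 and Tgfbr2 passed with no marker score. This depended on the 3 libraries that stood apart. Without them r with the neutrophil score was 0.579 for Inhba and 0.474 for Smad7. Ltbp1 with the macrophage score then had r = 0.472. In that setting 9 of the 80 relations with marker scores passed for r, against 2 with all tumours.

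**Figure D5:**
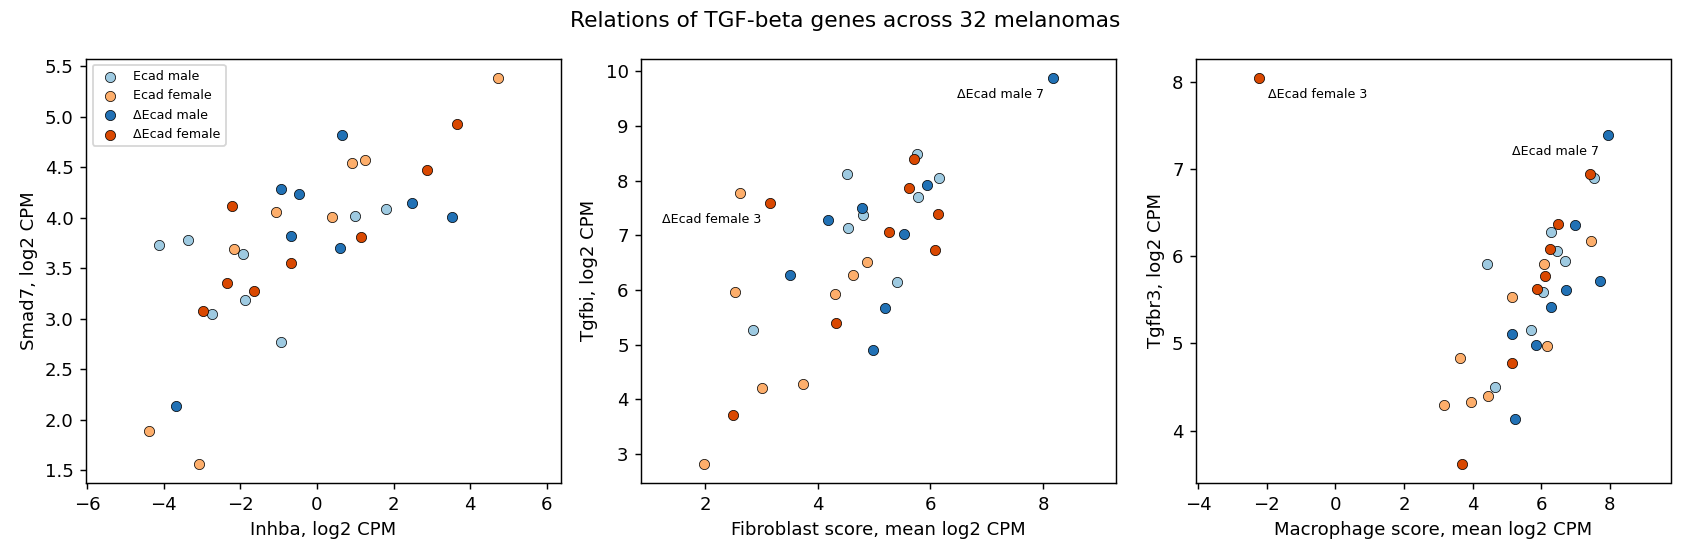
Each point is 1 of 32 tumours, coloured by group: Smad7 against Inhba, Tgfbi against the fibroblast score, and Tgfbr3 against the macrophage score, all on log2 CPM scales. In the first 2 panels the points rise together (r of 0.743 and 0.691), and in the third ΔEcad female 3 lies alone at the upper left of an otherwise rising band.

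The genes whose log2 CPM followed a member most closely over the 32 tumours were taken from all tested genes by Spearman's rho, as a description. Tgfb1 was nearest to Il3ra (0.806) and Cln6 (0.804), Tgfb2 to Prkca (0.688) and Kitl (0.679), and Tgfb3 to Tmtc4 (0.727) and Rasl11b (0.707). Inhba was nearest to Cemip2 (0.825) and Ext1 (0.824), and Ltbp1 to Casp12 (0.750) and Fam114a1 (0.702). Among the receptors, Tgfbr2 lay nearest to Pcdhgc3 (0.783) and Anxa11 (0.769), and Tgfbr3 to Apbb1ip (0.814) and Pla2g15 (0.781). Smad7 was nearest to Dock8 (0.787) and Cdh11 (0.776), and Tgfbi to 3300005D01Rik (0.849) and Cd200r3 (0.842). For no member was another of the 10 among the nearest pair.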

How the data were processed

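Libraries were stranded TruSeq mRNA preparations sequenced in paired-end mode. The authors mapped reads with STAR to GRCm38 (GENCODE M13) and deposited raw counts per gene and TPM. Batch correction is described where applicable, without saying whether these tumours were corrected, and a strand setting for counting is not given in the sources used here. GENCODE M21 named 50376 of 50600 identifiers. Counts were tested with edgeR 4.0.16 (TMM factors, filterByExpr, robust quasi-likelihood, 1 model of 32 tumours with a coefficient per group). SEs were derived from the test statistic. Scores are mean log2 CPM (prior count 1) over a list. The script was tested on simulated data for the female genotype comparison, with 1 spread shared by all genes. Of 100 genes changed by 2 on the log2 scale 34% were called, and of 100 changed by 4, 100%. A gene left uncalled may therefore still differ. Members and lists were chosen with earlier results of these data known. Named were the members, Cdh1, sex-linked genes for label checks, called pathway genes with the 3 smallest p per comparison, and the 2 genes most like each member (not reported here for Tgfbr1). Alternatives used DESeq2 1.42.0, limma 3.58.1, other filters and samples, score covariates and the tumour number as a block. Deviations from the group mean correlated from -0.547 to 0.423 between same-numbered tumours (48 pairs, median 0.0418), against a median of -0.00595 for other pairs. R 4.3.3 and Python 3.11.15 were used.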

Additional observations from a re-analysis of the deposited data

Results flagged for a closer look

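Of 40 sets of 8 values (10 genes in 4 groups), 1 held a tumour set apart from the rest of its group. Smad7 was at 2.14 log2 CPM (1.34 TPM) in ΔEcad male 1, the lowest value of the ΔEcad males, with a gap to the next tumour of 0.585 of the group's whole range, against a critical value of 0.526. Chance alone flags about 1 in 20 such sets. In TPM the same tumour had the lowest Tgfbr1, Tgfbr2 and Tgfb3 levels of the 32. On log2 CPM this held for Tgfbr1 and Tgfbr2, while Tgfb3 was lower in Ecad female 4 (3.11 against 3.29). Smad7 was lower on log2 CPM in Ecad female 8 (1.56). Low TPM in ΔEcad male 1 was not limited to members. Of the pathway genes named above, Acvr1b (5.38), Lrrc32 (2.07), Fbn1 (1.61) and Skil (1.22 TPM) were also lowest there, and the others were not.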

How the results depend on the processing

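The 10 genes stayed uncalled in all 6 comparisons under every alternative and with each tumour left out. The 6 fold changes with an unadjusted p under 0.05 kept their direction throughout. Of 640 values of all member folds under 11 other settings 41 changed sign, as did 41 of 1920 with 1 tumour left out. The range with 1 tumour left out was 0.67 to 1.39 for Tgfbr3 in females, 0.91 to 1.74 for Tgfb3 and 0.84 to 1.91 for Ltbp1 in males, -1.99 to -1.19 for Tgfbi between the sexes of Ecad tumours, and 0.56 to 0.98 for Tgfb3 and 0.45 to 1.22 for Ltbp1 over both sexes. Pathway genes called in females numbered 6 with DESeq2 (Mstn, Itgb6, Ltbp4, Lrrc32, Fst and Acvr1b) and 0 with limma voom, with CPM over 1 in at least 8 tumours, with only the tumours compared, with either pair of score covariates and without the 3 libraries that stood apart, and 0 to 5 with 1 tumour left out. DESeq2 also called 1 (Itgb6) between the sexes of Ecad tumours and 3 (Mstn, Itgb6 and Acvr1b) for the interaction, where leaving out 1 tumour gave 0 to 3. Over all 17717 tested genes DESeq2 called 1281 for genotype in females, 1023 between the sexes of Ecad tumours and 1225 for the interaction. The Tgfb1 share difference, ΔEcad minus Ecad in females, turned to 1.81 percentage points without the 3 libraries, and female minus male in ΔEcad turned to -0.026 (adjusted p = 0.997 for both). With 1 tumour left out the 4 share differences ran from -10.3 to 1.81 (females) and -18.2 to -7.96 (males) for genotype, and from -5.82 to 3.10 (Ecad) and 0.765 to 12.4 (ΔEcad) for sex. Of 45 gene pairs 10 passed for r on log2(TPM + 1) and 2 without the 3 libraries, and 2 to 5 with 1 tumour left out. Of 80 pairs with a marker score 2 passed, against 7 on log2(TPM + 1), 9 without the 3 libraries, and 1 to 9 with 1 tumour left out. The relations with 1 tumour left out were added after seeing the data. The cause of these shifts was not tested. Fits on only the tumours compared cannot give the interaction or the mean over sexes.

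With the tumour number as a block, 0 pathway genes were called in females and no call on a member changed. By mean correlation, 4 of 32 tumours were closest to tumours of their own number. The labels do not say what the numbers mean, and this check cannot exclude that some tumours share a factor. Precision was limited by the spread between tumours, and for Inhba also by counts of at most 3 in 6 tumours.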
